A study of Mus musculus with 5 samples.

Results

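Macrophages take iron out of engulfed red cells, store it and hand it back to the blood, and 10 genes of this route were followed in LPS-treated bone marrow-derived macrophages (BMDMs) with and without Kdm6a. They were listed by name, with earlier results of these data known. The list covers haem breakdown (Hmox1, Blvrb), iron export (Slc40a1), storage (Fth1, Ftl1), uptake and transport (Tfrc, Slc11a1, Slc11a2) and sensing (Ireb2, Aco1). All 10 were found among the 21878 genes of the table. The wild-type group was 2 samples of Kdm6aF/Y BMDMs (replicates 1 and 3), which carry a floxed Kdm6a gene on their single X chromosome. The Kdm6a-deficient group was 3 samples of Kdm6aF/Y;Lyz2-Cre BMDMs (replicates 1, 2 and 3), in which the Cre recombinase, driven from the lysozyme gene Lyz2 of myeloid cells, removes the floxed part. The sample labels give both groups as treated with lipopolysaccharide (LPS), a bacterial stimulus, while the study's text on the sequencing does not state a treatment, and there was no untreated group, so the response to LPS itself was not measured. The study's methods describe BMDMs from marrow of 10-week-old male mice on a C57BL/6J background, grown with macrophage colony-stimulating factor, and each library as made from a pooled RNA sample. Whether separate mice gave the samples is not stated in the sources used here, so the p-values measure only the spread between these samples.

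Haem oxygenase, encoded by Hmox1, opens the haem ring and frees its iron, and biliverdin reductases such as Blvrb act on the pigments that are left. Iron that is not needed is kept inside ferritin, a shell of heavy (Fth1) and light (Ftl1) chains, or leaves the cell through ferroportin (Slc40a1), the known iron exporter of mammals. The iron regulatory proteins, encoded by Aco1 and Ireb2, bind hairpins called iron-responsive elements when iron is scarce. Binding in a 5′ untranslated region holds back translation, and binding in a 3′ untranslated region protects the mRNA from decay. mRNA levels therefore show only part of this control, since they do not read translation.

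Hairpins of this kind were searched in the GENCODE vM21 transcripts (GRCm38), as a C, a stem of 5 pairs (G with T allowed) and the loop CAGTGN, on the transcribed strand and outside the coding part. Of 21877 protein-coding genes 0.731% held a match, and of the 10 iron handling genes 4 did, namely Fth1, Ftl1 and Slc40a1 in the 5′ and Tfrc in the 3′ untranslated region. These 30-base sites are shown because the mRNAs of these 4 genes are known targets of the iron regulatory proteins. Slc11a2, also a known target through its 3′ untranslated region, held no match to this strict pattern. Capitals mark the bulged C and the 6-base loop.
Fth1, chr19:9982732-9982761, plus strand: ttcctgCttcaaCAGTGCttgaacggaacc
Ftl1, chr7:45459778-45459807, minus strand: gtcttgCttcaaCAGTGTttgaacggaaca
Slc40a1, chr1:45925464-45925493, minus strand: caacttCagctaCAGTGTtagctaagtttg
Tfrc, chr16:32631219-32631248, plus strand: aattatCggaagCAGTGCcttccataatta
Tfrc, chr16:32631598-32631627, plus strand: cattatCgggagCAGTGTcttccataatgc
Tfrc, chr16:32631663-32631692, plus strand: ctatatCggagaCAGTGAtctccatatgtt
Tfrc, chr16:32631710-32631739, plus strand: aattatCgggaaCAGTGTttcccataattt
The stem before the loop is the same in both ferritin genes, and Tfrc held 4 matches where each of the other 3 genes held 1. A match describes the reference sequence, and no match in the other 6 members, Slc11a2 among them, says only that this pattern was not found.

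Levels are given in FPKM, the authors' unit, in which fragment numbers are divided by the length of the transcript and by the number of fragments mapped in that sample. Genes at 1 FPKM or more numbered 10641 to 10769 per sample. The depth of each sample is unknown, but in the authors' deposited table the mean normalised count of a member was at least 578 (Slc40a1, wild-type) and at most 468857 (Fth1, Kdm6a-deficient). All 10 members were among the 10893 genes tested. Kdm6a itself was at 3.72 and 2.91 FPKM in wild-type and at 2.81, 1.77 and 2.44 FPKM in Kdm6a-deficient samples, lower in all 3 but not called by limma (log2 difference −0.38, adjusted p = 0.268), and a value per gene does not single out the floxed part. Lyz2, which carries the Cre, was lower by limma (log2 difference −1.10, adjusted p = 0.00722). The macrophage genes Adgre1, Csf1r, Cd68 and Mertk, picked from the marker list after their values were seen, were detected in every sample.

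Slc40a1, the iron exporter, rose in Kdm6a-deficient BMDMs and was the only member that passed the test. Slc40a1 (GeneID 53945) was at 8.13 and 8.89 FPKM in wild-type samples 1 and 3 and at 15.6, 15.2 and 16.0 FPKM in Kdm6a-deficient samples 1, 2 and 3. The groups were far apart, with a gap between them several times the spread within either. The wild-type mean was 8.51 ± 0.541 FPKM (SD, n = 2). The Kdm6a-deficient mean was 15.6 ± 0.415 FPKM (SD, n = 3), higher by a ratio of 1.83. On the log2(FPKM + 1) scale the difference was 0.81 (standard error 0.08, 95% interval 0.62 to 0.99, adjusted p = 0.0028 from limma), which was higher than that of 99.5% of tested genes. The call held in all 13 alternatives run, in which the difference ranged from 0.75 to 0.87 and the adjusted p from limma from 0.000574 to 0.0284. Of the 10 members 1 was called, which compares with 3.91% of all tested genes (1.73% higher and 2.18% lower). In wild-type samples Slc40a1 had the lowest mean of the 10 members, and its range overlapped that of Ireb2. In Kdm6a-deficient samples it stood above Ireb2 without overlap, just under Slc11a2.

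**Figure D1:**
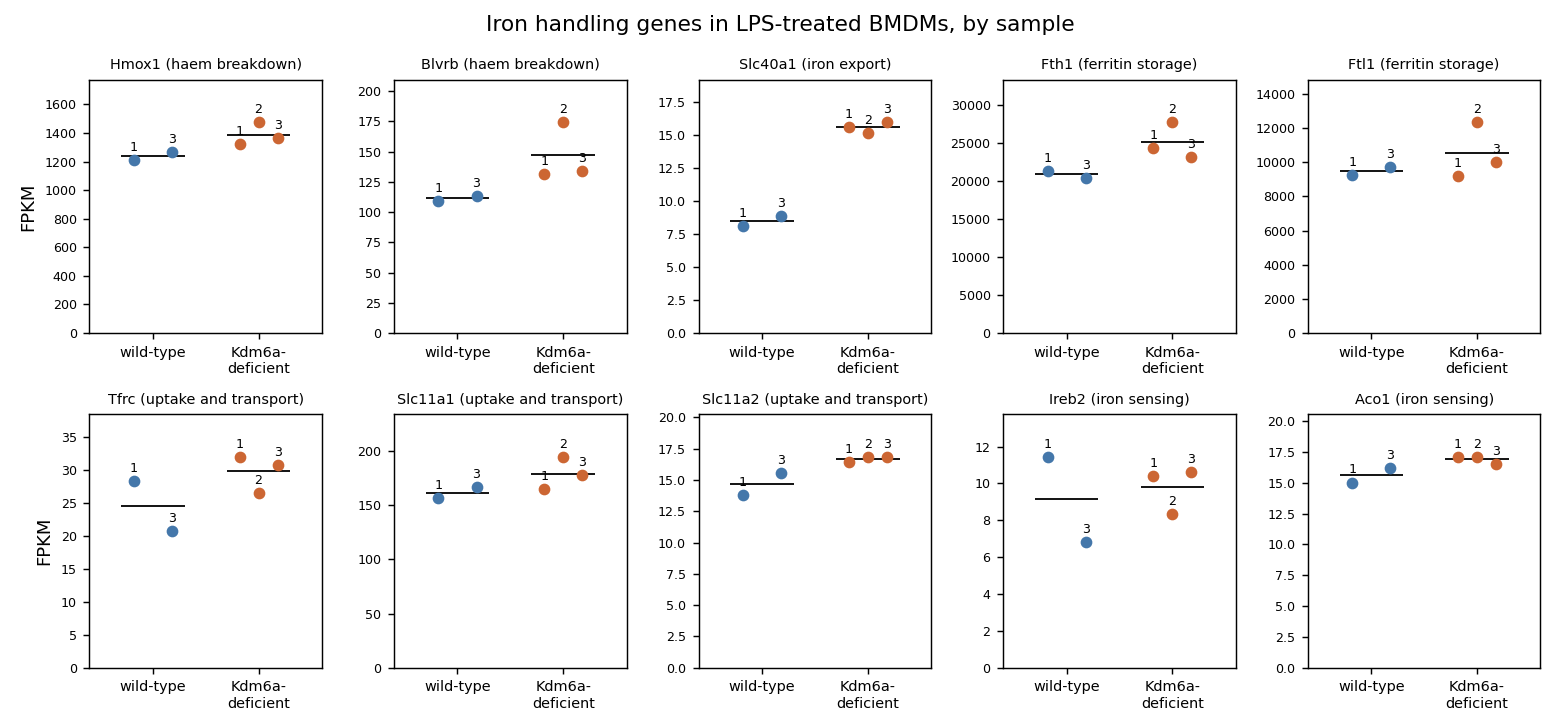
FPKM of each iron handling gene (vertical axes, starting at 0) in 2 wild-type samples (blue) and 3 Kdm6a-deficient samples (orange), with replicate numbers above the points and the mean of each genotype as a line. Slc40a1 lies at 8.13 and 8.89 FPKM in wild-type and at 15.2 to 16.0 FPKM in Kdm6a-deficient samples, while Ftl1, Tfrc, Slc11a1 and Ireb2 overlap between the genotypes.

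Of the 7115 genes averaging 5 FPKM or above, those whose centred log2 profile over the 5 samples lay closest to that of Slc40a1 were Upp1, Lpl, Vcam1, Npnt and Fpr2, with Euclidean distances of 0.0809, 0.111, 0.14, 0.14 and 0.146. This likeness rests on 5 samples and mainly on the step between the genotypes. Upp1, a uridine phosphorylase, was at 5.08 and 5.23 FPKM in wild-type and at 9.39, 9.49 and 9.65 FPKM in Kdm6a-deficient samples. Lpl, which frees fatty acids from lipoproteins, was at 151 and 152 FPKM and at 275, 276 and 274 FPKM in the same order. Vcam1, an adhesion molecule, was at 14.8 and 15.5 FPKM and at 28.8, 28.0 and 31.2 FPKM.

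Both genes of haem breakdown were higher in every Kdm6a-deficient sample than in either wild-type sample, and neither was called. Hmox1 (GeneID 15368) was at 1208 and 1270 FPKM in wild-type samples 1 and 3 and at 1321, 1477 and 1363 FPKM in Kdm6a-deficient samples 1, 2 and 3. Its log2 difference was 0.16 (95% interval −0.058 to 0.38, adjusted p = 0.45 from limma). With quantile normalization alone it was called, at nearly the same size (0.17, adjusted p = 0.0216 from limma), where 2.07% of all tested genes were called higher. Blvrb (GeneID 233016) was at 110 and 113 FPKM in wild-type, against 132, 175 and 134 FPKM in Kdm6a-deficient samples. Samples 1 and 3 were close together and sample 2 was well above them. The log2 difference of Blvrb was 0.38 (standard error 0.13, 95% interval 0.084 to 0.68, adjusted p = 0.183 from limma). Leaving out Kdm6a-deficient sample 2 made the difference smaller but called (0.25, adjusted p = 0.0435 from limma, with 2.59% of tested genes called higher). After removal of the dependence on transcript length it was 0.32 (adjusted p = 0.0278 from limma, with 3.16% called higher). The reductase of the other family, Blvra, was at 30.4 and 31.7 FPKM and at 35.3, 43.2 and 38.3 FPKM (log2 difference 0.31, adjusted p = 0.147 from limma). Hmox2, the constitutive haem oxygenase, was at 35.1 and 36.3 FPKM and at 36.7, 42.7 and 36.1 FPKM, with overlap.

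The ferritin genes were by far the most abundant members, and Fth1 was the most abundant gene of the whole table in every sample. Fth1 (GeneID 14319), the chain that oxidises iron for storage, was at 21362 and 20341 FPKM in wild-type samples 1 and 3 and at 24352, 27758 and 23168 FPKM in Kdm6a-deficient samples 1, 2 and 3. The groups did not overlap, but the spread among the Kdm6a-deficient samples was wide. The log2 difference of Fth1 was 0.26 (standard error 0.16, 95% interval −0.12 to 0.65, adjusted p = 0.488 from limma). Quantile normalization gave it a difference of 0, which follows from its first rank in each sample. Ftl1 (GeneID 14325), the light chain, was at 9264 and 9711 FPKM in wild-type and at 9167, 12354 and 10021 FPKM in Kdm6a-deficient samples. Here Kdm6a-deficient sample 1 was below both wild-type samples and sample 2 far above them. The log2 difference of Ftl1 was 0.14 (95% interval −0.25 to 0.52, adjusted p = 0.75 from limma), and it fell to 0.015 without Kdm6a-deficient sample 2. Quantile normalization, which sets each value by its rank in the sample, called it (0.31, adjusted p = 0.000199 from limma). Lyz2 ranked above Ftl1 in both wild-type samples (18563 and 19359 FPKM) and below it in all 3 Kdm6a-deficient samples (8260, 9119 and 9127 FPKM). The call of Ftl1 therefore includes this change of rank. Processed copies of Fth1 and Ftl1 exist in the mouse genome, and the way such reads were counted is not given in the sources used here. The levels of both are uncertain to that extent. Of the 7 heavy-chain-like genes of the Fthl17 family listed in the table, all were at 0 in every sample, as was the mitochondrial ferritin Ftmt.

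Together Fth1 and Ftl1 made up 7.66% and 7.33% of the summed FPKM in wild-type and 8.63%, 9.26% and 8.31% in Kdm6a-deficient samples. The ferritin share was higher in 3 of 3 Kdm6a-deficient samples, with a two-sided exact permutation p of 0.1, which is the smallest that 2 against 3 samples allow (0.2 when adjusted over the 2 ratios computed). The ratio of Fth1 to Ftl1 was 2.31 and 2.09 in wild-type and 2.66, 2.25 and 2.31 in Kdm6a-deficient samples. These overlapped, with an exact permutation p of 0.5 (two-sided, 0.5 when adjusted).

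None of the 3 uptake and transport genes was called. Tfrc (GeneID 22042), the transferrin receptor, was at 28.4 and 20.7 FPKM in wild-type samples 1 and 3 and at 32.0, 26.5 and 30.7 FPKM in Kdm6a-deficient samples 1, 2 and 3. The wild-type samples were further apart than the means of the genotypes, and Kdm6a-deficient sample 2 lay between them. The log2 difference of Tfrc was 0.28 (95% interval −0.049 to 0.61, adjusted p = 0.37 from limma). It moved to 0.50 when wild-type sample 1 was left out and to 0.062 when wild-type sample 3 was. Slc11a1 (GeneID 18173), a metal transporter of the phagosome of which C57BL/6 mice carry a known loss-of-function allele, was at 156 and 166 FPKM in wild-type and at 165, 195 and 178 FPKM in Kdm6a-deficient samples. Its groups overlapped, with a log2 difference of 0.15 (95% interval −0.064 to 0.36, adjusted p = 0.48 from limma), and 0.085 once Kdm6a-deficient sample 2 was left out. Slc11a2 (GeneID 18174), its relative that carries iron out of endosomes, was at 13.8 and 15.5 FPKM and at 16.4, 16.8 and 16.9 FPKM. All 3 Kdm6a-deficient samples of Slc11a2 were above both wild-type samples, by a log2 difference of 0.18 (95% interval −0.0061 to 0.36, adjusted p = 0.307 from limma), or 0.099 without wild-type sample 1.

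The genes of the iron regulatory proteins were among the less abundant members and had the smallest fitted differences of the members. Aco1 (GeneID 11428), whose product is either cytosolic aconitase or an iron regulatory protein, was at 15.0 and 16.2 FPKM in wild-type and at 17.1, 17.1 and 16.5 FPKM in Kdm6a-deficient samples. Its samples did not overlap but were close, with a log2 difference of 0.11 (95% interval −0.061 to 0.28, adjusted p = 0.52 from limma), or 0.06 without wild-type sample 1. Ireb2 (GeneID 64602), whose product is the other iron regulatory protein, was at 11.5 and 6.83 FPKM in wild-type samples 1 and 3 and at 10.4, 8.34 and 10.6 FPKM in Kdm6a-deficient samples 1, 2 and 3. The wild-type samples were its highest and its lowest. The log2 difference of Ireb2 was 0.12 (95% interval −0.34 to 0.58, adjusted p = 0.823 from limma). Leaving out wild-type sample 3 turned it to −0.21, and leaving out wild-type sample 1 made it 0.46. Fbxl5, the iron-sensing subunit of the ligase that removes Ireb2 protein, was at 27.6 and 25.7 FPKM and at 31.3, 24.1 and 26.1 FPKM (log2 difference 0.02, adjusted p = 0.959 from limma).

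**Figure D2:**
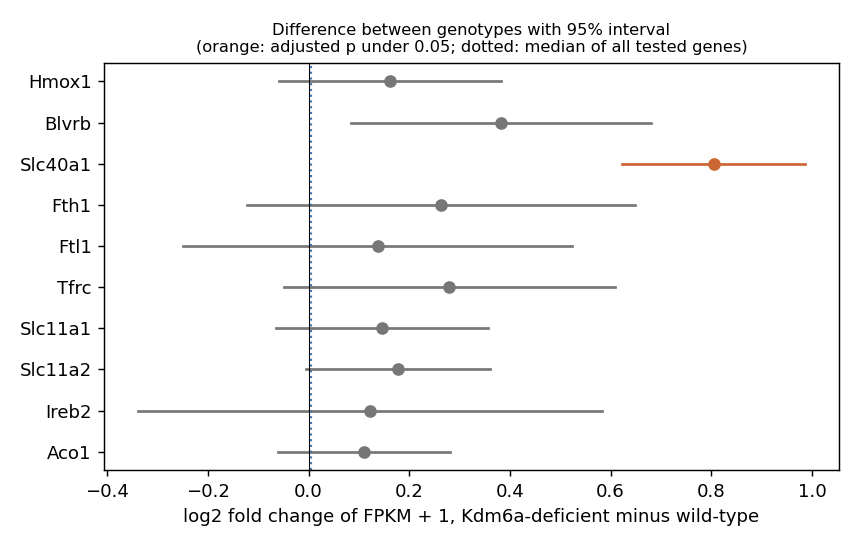
Log2 difference of FPKM + 1 between Kdm6a-deficient and wild-type samples (horizontal axis) for each of the 10 genes, with its 95% interval from limma and, dotted, the median of all tested genes. The interval of Slc40a1, 0.62 to 0.99, lies above the others' estimates but overlaps the intervals of Blvrb (up to 0.68) and Fth1 (up to 0.65). Of the other 9 intervals 8 include 0, the exception being that of Blvrb.

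As a group, all 10 members had a fitted difference above 0, where 51.5% of all tested genes did, and the median over the members was 0.17 against 0.0048 over all tested genes. In 6 of the 10, namely Hmox1, Blvrb, Slc40a1, Fth1, Slc11a2 and Aco1, every Kdm6a-deficient sample was above every wild-type sample, as in 16.7% of all tested genes. Those signs held under every scaling run, except that Fth1 was at 0 with quantile normalization, and Ireb2 changed sign without wild-type sample 3. An unadjusted p under 0.05 in limma was reached by 2 members, Slc40a1 and Blvrb, and by 1880 of all 10893 tested genes. The members were chosen with earlier results of these data known, which limits the comparison with all tested genes. The members share their samples, so a sample that is high or low in many genes moves several of them at once.

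Kdm6a-deficient sample 2 was such a sample. On the log2 scale Ftl1, Blvrb, Fth1 and Hmox1 were 0.24, 0.26, 0.15 and 0.092 above the mean of their genotype in it, while Tfrc and Ireb2 were at −0.15 and −0.20. The first 4 have the shortest transcripts of the members (longest coding transcript 968 to 1569 bases), and Tfrc and Ireb2 the longest (4890 and 5770 bases). Over all tested genes with a known length, the shortest of 3 equal length classes had a median deviation of 0.12 from the mean of the 5 samples in Kdm6a-deficient sample 2 and the longest class one of −0.11, against −0.054 to 0.0013 and 0.012 to 0.049 in the other samples. Slc40a1, of 3370 bases, deviated by at most 0.058 in any sample. With the length trend removed, the differences of Fth1 and Ftl1 were 0.22 and 0.073 (adjusted p = 0.0671 and 0.552 from limma), and Slc40a1 and Blvrb were called.

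**Figure D3:**
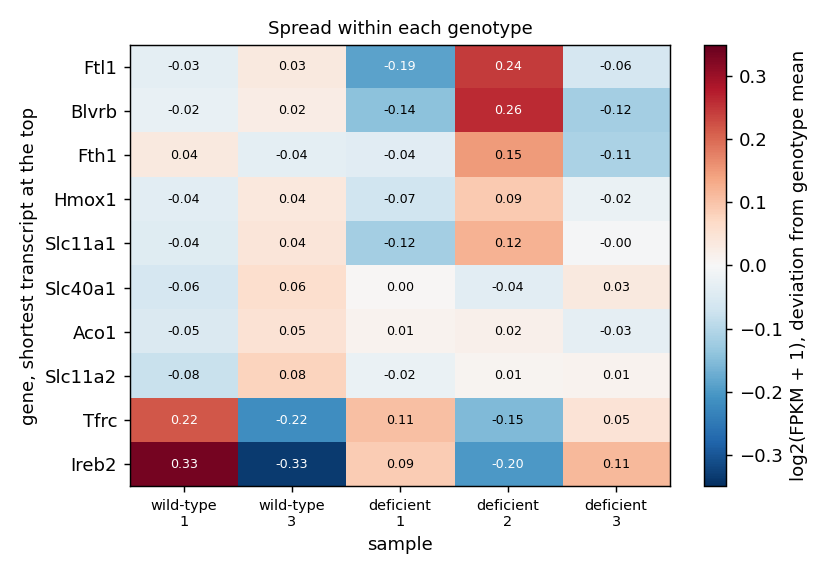
Deviation of each sample (columns) from the mean of its genotype in log2(FPKM + 1), with genes (rows) ordered from the shortest transcript at the top to the longest, red for above and blue for below. Kdm6a-deficient sample 2 is above its genotype in the 5 shortest genes and at −0.15 and −0.20 in Tfrc and Ireb2, and the wild-type pair mirror each other because a mean of 2 lies midway.

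Beyond the members, 9 lists of iron and haem genes held 101 tested genes, of which 5 rose, 4 fell and 92 were not called, with a median log2 difference of 0.056. Over all tested genes 1.73% were called higher and 2.18% lower, and the counts of single lists below are read beside these shares. The largest changes were those of Spic and Cd163. Spic, a transcription factor needed by the red pulp macrophages of the spleen and known in the mouse to act on Slc40a1, was at 11.5 and 10.8 FPKM in wild-type and at 32.2, 35.6 and 33.0 FPKM in Kdm6a-deficient samples (log2 difference 1.51, adjusted p = 0.000444 from limma). Cd163, the receptor for haemoglobin bound to haptoglobin, was at 0.573 and 0.55 FPKM and at 2.81, 2.74 and 2.96 FPKM (log2 difference 1.30, adjusted p = 0.000734 from limma). In both genes the genotypes were far apart, and both calls held in all 13 alternatives. Cd163 was under 1 FPKM in both wild-type samples, so it passed the filter only through the Kdm6a-deficient group, where it was high. With no filter on low values its adjusted p was 0.00551 from limma. The size for Cd163, a low gene, depended on the pseudocount, and with 0.1 FPKM in place of 1 FPKM its log2 difference was 2.15 and that of Spic 1.58.

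Of 8 tested genes of haem and haemoglobin handling Cd163 alone rose and none fell, beside 1.73% of all tested genes called higher and 2.18% lower. Slc48a1, which carries haem out of the phagolysosome, was at 242 and 256 FPKM and at 278, 303 and 279 FPKM, without overlap and not called (log2 difference 0.20, adjusted p = 0.246 from limma). Hp, the gene of haptoglobin, chosen after its values were seen, was at 405 and 433 FPKM and at 565, 773 and 614 FPKM (log2 difference 0.62, adjusted p = 0.0553 from limma). Of 12 tested regulators 2 rose, Spic and Nr1h3, a sterol-sensing nuclear receptor (log2 difference 0.65, adjusted p = 0.0157 from limma). Bach1, the haem-sensing repressor of Hmox1, was at 13.4 and 13.4 FPKM and at 13.3, 10.8 and 13.8 FPKM, with overlap. Nfe2l2, the activator Nrf2 of Hmox1 and the ferritin genes, was at 68.0 and 68.5 FPKM and at 62.0, 58.3 and 62.3 FPKM (log2 difference −0.16, adjusted p = 0.277 from limma), and Maf was at 70.8 and 71.8 FPKM and at 97.7, 80.5 and 88.9 FPKM (0.31, adjusted p = 0.137 from limma). Of 12 tested targets of Nrf2 outside iron handling none was called in limma. An unadjusted p under 0.05 was reached by 2 of them, beside 1880 of all 10893 tested genes.

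Of 12 tested genes of transferrin, iron uptake and ferrireductases, 3 fell and none rose, beside 2.18% of all tested genes called lower and 1.73% higher. Tfr2, a second transferrin receptor, went from 2.26 and 2.77 FPKM to 1.28, 1.03 and 1.36 FPKM (log2 difference −0.66, adjusted p = 0.0216 from limma). The metalloreductase Steap4 was at 1.63 and 1.70 FPKM in wild-type and at 0.505, 0.511 and 0.995 FPKM in Kdm6a-deficient samples. It passed the filter of 1 FPKM only through the wild-type group, where it was high. Its log2 difference was −0.69 (adjusted p = 0.0443 from limma). With the 0.1 FPKM pseudocount it was −1.25 and not called (adjusted p = 0.0646 from limma). Steap1, of the same family, had a log2 difference of −0.85 (adjusted p = 0.0238 from limma). Steap3, the ferrireductase of the endosome, was at 4.31 and 5.05 FPKM and at 4.39, 4.55 and 4.10 FPKM, with overlap. Lcn2, which binds bacterial siderophores, was at 415 and 443 FPKM and at 468, 580 and 507 FPKM (log2 difference 0.27, adjusted p = 0.257 from limma).

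Of 28 tested genes of mitochondrial iron and iron-sulphur clusters 1 fell (beside 2.18% of all tested genes), Slc25a37, the mitochondrial iron importer mitoferrin. It was at 28.0 and 27.7 FPKM in wild-type and at 19.6, 18.7 and 19.3 FPKM in Kdm6a-deficient samples (log2 difference −0.51, adjusted p = 0.00916 from limma). Of 10 tested genes of haem synthesis 1 rose, Alas1, the first enzyme of the pathway, from 62.3 and 66.5 FPKM to 85.0, 91.0 and 80.6 FPKM (log2 difference 0.40, adjusted p = 0.0389 from limma). Of 8 iron sensing partners 1 rose, the hypoxia factor gene Epas1, by 0.48 (adjusted p = 0.0342 from limma). None of 4 tested genes of iron export, ferroxidases and hepcidin and none of 7 tested iron chaperones passed in limma. In each of these lists 1 gene was at an unadjusted p under 0.05, beside 1880 of all 10893 tested genes. Hamp, the gene of hepcidin, was listed at 0 in all 5 samples. Ncoa4, which delivers ferritin for breakdown, was at 8.45 and 7.59 FPKM and at 11.99, 10.1 and 13.2 FPKM, without overlap (log2 difference 0.50, adjusted p = 0.0713 from limma). With single samples left out, the adjusted p from limma of these other called genes rose to at most 0.211 for Alas1, 0.164 for Epas1, 0.0762 for Nr1h3, 0.1 for Slc25a37, 0.122 for Steap1, 0.117 for Steap4 and 0.169 for Tfr2. The calls of Alas1 and Epas1 were lost without any 1 of wild-type samples 1 and 3 and Kdm6a-deficient samples 1 and 3, those of Nr1h3, Slc25a37 and Steap1 without either wild-type sample or Kdm6a-deficient sample 3, that of Tfr2 without wild-type sample 3 or Kdm6a-deficient samples 1 or 3, and that of Steap4 without Kdm6a-deficient samples 1 or 2. Without either wild-type sample Steap4 no longer reached the filter and was not tested. With no filter on low values, the calls of Alas1 (adjusted p = 0.0632 from limma), Epas1 (0.064), Steap1 (0.0729), Steap4 (0.0908) and Tfr2 (0.0519) were lost, as were that of Alas1 without the variance trend (0.0565) and that of Steap4 with quantile normalization (0.0512).

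**Figure D4:**
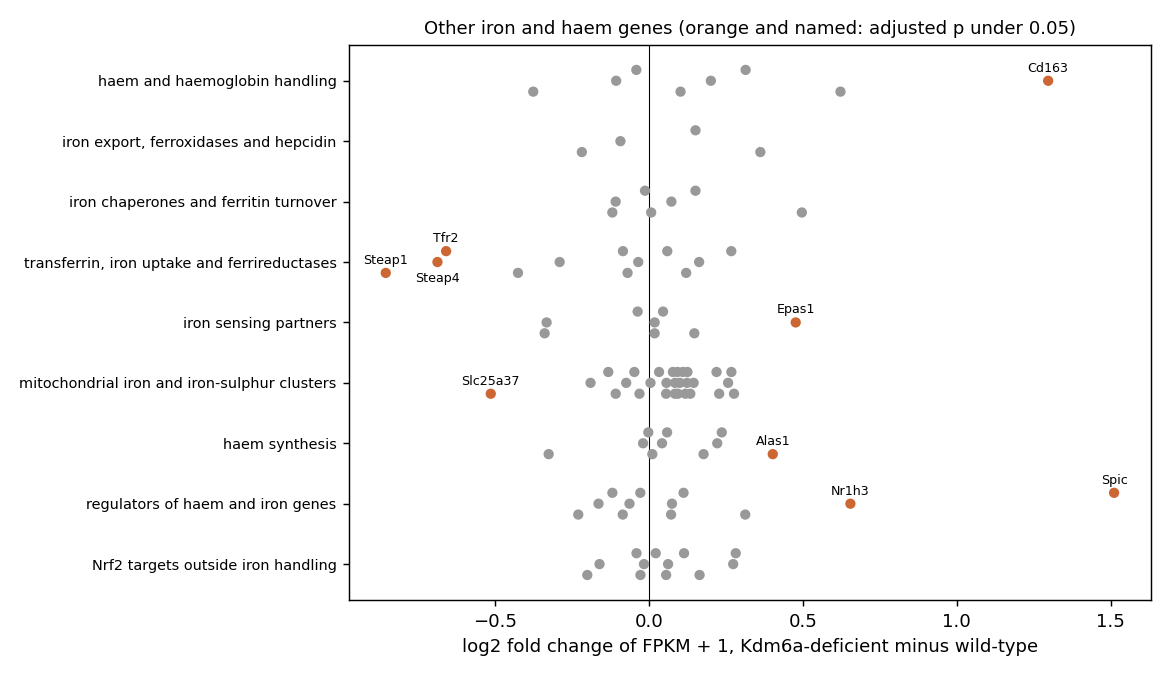
Log2 difference of FPKM + 1 between Kdm6a-deficient and wild-type samples (horizontal axis) for each of 101 tested genes in 9 lists of iron and haem genes (rows), with called genes in orange and named. Spic and Cd163 lie furthest to the right, at 1.51 and 1.30, and the 3 called genes of iron uptake lie to the left, between −0.66 and −0.85.

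In a bulk sample, fewer cells of a type and less RNA per cell cannot be told apart. Red cell precursors carry much Tfrc, and of 12 erythroid markers listed 7 were at 0 in every sample, the haemoglobin genes Hbb-bs, Hbb-bt and Hba-a2 among them, with a summed level of 0.433 to 0.462 FPKM in wild-type and 0.281 to 0.962 FPKM in Kdm6a-deficient samples. Dividing cells carry Tfrc as well, and the 10 proliferation genes summed to 138 to 141 FPKM in wild-type and to 150 to 162 FPKM in Kdm6a-deficient samples, with none called in limma and 4 at an unadjusted p under 0.05. The 9 macrophage markers other than Lyz2 summed to 2113 to 2165 FPKM in wild-type and to 2317 to 2397 FPKM in Kdm6a-deficient samples, and none was called in limma (3 at an unadjusted p under 0.05). Marker counts are read beside the 1.73% of all tested genes called higher and 2.18% called lower. Those at an unadjusted p under 0.05 are read beside 1880 of the 10893 tested genes. Of 11 tested stromal markers 5 fell and 1 rose, with sums of 3271 to 3475 FPKM against 2500 to 2520 FPKM, of 5 endothelial markers 1 fell (34.0 to 34.9 FPKM against 24.2 to 28.1 FPKM), and of 5 osteoclast markers 3 fell (225 to 233 FPKM against 198 to 226 FPKM). Of 6 monocyte markers 2 rose and 1 fell (788 to 839 FPKM against 645 to 686 FPKM), and of 11 neutrophil markers 1 rose (2045 to 2163 FPKM against 2054 to 2631 FPKM). Of 3 tested B cell markers none was called in limma or had an unadjusted p under 0.05, and the 1 tested marker of T or NK cells, Cd4, rose. The part of these cells in the values of Slc40a1, Steap1, Steap4, Tfr2 and the other genes was not tested.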

How the data were processed

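RNA-seq of LPS-treated BMDMs was available for 2 wild-type and 3 Kdm6a-deficient samples, grouped by their titles. TopHat and Cufflinks served the authors for mapping and for the deposited FPKM of each gene, in versions not given in the sources used here. Bowtie 0.12.2 and the builds mm8 and mm9 also stand in the submitters' processing notes, with no role stated. The deposited table also holds a signal column per genotype, the authors' averaged gene counts after size-factor scaling, used here only for the depth behind a gene. Its fold changes and p-values are the authors' own comparison and were not used. All sample columns were used, and 27 gene symbols stored as dates were restored from their GeneID.

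The values being FPKM, log2(FPKM + 1) was fitted by limma with a variance trend, on the 10893 genes that reached 1 FPKM in 2 samples or more, without covariates, and Benjamini-Hochberg adjusted p under 0.05 was called. Differences are Kdm6a-deficient minus wild-type, and on this scale those of low genes are understated. Ratios were compared by an exact permutation test. The depth of each sample is unknown. The members, the 9 wider lists and the 10 marker lists were chosen with earlier results of these data known. Named are all members, the called genes of the wider lists, 12 genes of these lists taken whatever their values, Kdm6a and Lyz2, the 5 profiles nearest to the member with the largest difference among genes of at least 5 FPKM, and genes marked as chosen later. As alternatives, the fit was run with 0.1 FPKM as pseudocount, unfiltered, under 3 scalings, without the variance trend, with a replicate block, with each sample left out and, added after the data were seen, removal of a trend with transcript length (loess, GENCODE vM21, 96.7% of tested genes matched). 1 marker gene of the lists is not reported here. The fit was tested on simulated data. Tools were limma 3.58.1 under R 4.3.3, and pandas 2.3.3, numpy 2.4.6 and matplotlib 3.10.9 under Python 3.11.15.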

Additional observations from a re-analysis of the deposited data

How the results depend on the processing

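Slc40a1, Spic and Cd163 kept their direction and their call in all 13 alternatives. The other 9 members were not called in most. With the replicate number as a block 996 genes were called, of which 436 were higher (4% of those tested). Among the called genes were 3 members (Slc40a1, Blvrb at 0.25 and Fth1 at 0.19, adjusted p = 0.0221 and 0.0244 from limma) and 20 genes of the wider lists. No wild-type sample has the number 2, so the block takes Kdm6a-deficient sample 2 out of the comparison. It therefore gave the members the same differences as leaving that sample out. Whether same-numbered samples are pairs is unknown. Their deviations correlated at 0.43 for number 1 and −0.14 for number 3. The deviations of the 2 wild-type samples mirror each other, so these values cannot settle it. Quantile normalization, which sets values by rank, called 3 members higher (Slc40a1, Hmox1 at 0.17 and Ftl1 at 0.31), where 2.07% of all tested genes were called higher. Removal of the length trend called 807 genes, of which 344 were higher (3.16% of those tested). Among the 807 were 2 members (Slc40a1 and Blvrb at 0.32) and 19 genes of the wider lists. Without a filter 399 of 16213 genes were called, among them 5 genes of the wider lists. With each sample left out in turn, 81 to 678 genes, 1 to 2 members and 2 to 14 genes of the wider lists were called, with Blvrb at 0.25 to 0.45 and Ireb2 at −0.21 to 0.46 on the log2 scale. The lowest count of genes, 81, came without wild-type sample 3 and the highest without Kdm6a-deficient sample 2. Where 1 wild-type sample was left, its spread was assumed to be like that of the other group. The causes were not tested. Scaling moved the median of all genes by less than 0.1. With 2 against 3 samples and FPKM without counts, small differences between the genotypes may not be detectable.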
